A study of Mus musculus with 24 samples.

Results

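The 8 genes Prx, Drp2, Pmp22, Pmp2, Cldn19, Egr2, Dhh and Scn7a belong to peripheral myelin and the Schwann cell, and were followed in 24 libraries of polyA RNA, each from the whole spinal cord of 1 mouse aged 8 weeks. They were chosen by name, and all 8 were found by symbol among the 38924 genes listed in each library. The libraries held 19727467 to 32392753 counts. All 8 were also among the 17409 genes with enough counts to be tested. The mice came from a cross of a dominant mutation of the glycyl-tRNA synthetase gene, Gars P278KY/+, with a null allele of Gcn2, on a background labelled B6J;CASTxB6.129. Gars P278KY/+ mice are a model of Charcot-Marie-Tooth neuropathy, and Gcn2 encodes a kinase that senses uncharged tRNA and phosphorylates the initiation factor eIF2. Each group is named here by its Gcn2 genotype and then by Gars, where "Gars mutant" stands for P278KY/+. There were 4 Gcn2+/+ Gars mutants, 4 Gcn2+/+ mice with wild-type Gars, 4 Gcn2+/- Gars mutants, 4 Gcn2+/- mice with wild-type Gars, 5 Gcn2-/- Gars mutants and 3 Gcn2-/- mice with wild-type Gars. The labels name no treatment, and both sexes were present in every group. The labels do not state whether nerve roots and meninges were removed from the cord.

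Schwann cells make the myelin of peripheral nerves and spinal roots, whereas oligodendrocytes make that of the spinal cord. The line between both kinds of myelin lies in the roots, close to where they join the cord. A Schwann cell commits to myelination under the transcription factor Egr2, wraps an axon and compacts the wraps with proteins such as Pmp22 and Pmp2. Outside the compact layers, periaxin (Prx) and Drp2 tie the Schwann cell membrane to dystroglycan and the basal lamina. Cldn19 builds tight junctions between the wraps, Dhh is the ligand through which Schwann cells direct the formation of the nerve sheath, and Scn7a is a sodium channel found in Schwann cells that do not myelinate. Pmp22, Drp2 and Scn7a are also transcribed outside the Schwann lineage.

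High levels of these genes stood in single libraries of 2 genotype groups, and not in every mouse of either group. A score was made from 18 other Schwann cell and peripheral myelin genes, as their mean log2(CPM + 1), where CPM is the count of a gene scaled to the size of its library by the TMM method. It lay between 5.14 and 5.58 in 4 libraries, more than 1 above the median of 4.02, and between 3.83 and 4.70 in the other 20. Those 4 libraries were Gcn2+/+ Gars mutants 2 and 4 and Gcn2+/- wild-type Gars mice 1 and 3, and the highest of the others, at 4.70, was Gcn2+/- Gars mutant 4. The 2 Gcn2+/+ Gars mutants were female and the 2 Gcn2+/- wild-type Gars mice male, so sex and genotype went together among the 4. Their whole groups held 1 male and 3 females, and 3 males and 1 female, in that order. The titles of the 4 samples opened with 3 different numbers. Every member was higher in each of the 4 libraries than in each of the 19 libraries left when Gcn2+/- Gars mutant 4 is set aside, a position held by 1.34% of all tested genes. In bulk tissue, more Schwann cells and more RNA per Schwann cell cannot be told apart.

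**Figure D1:**
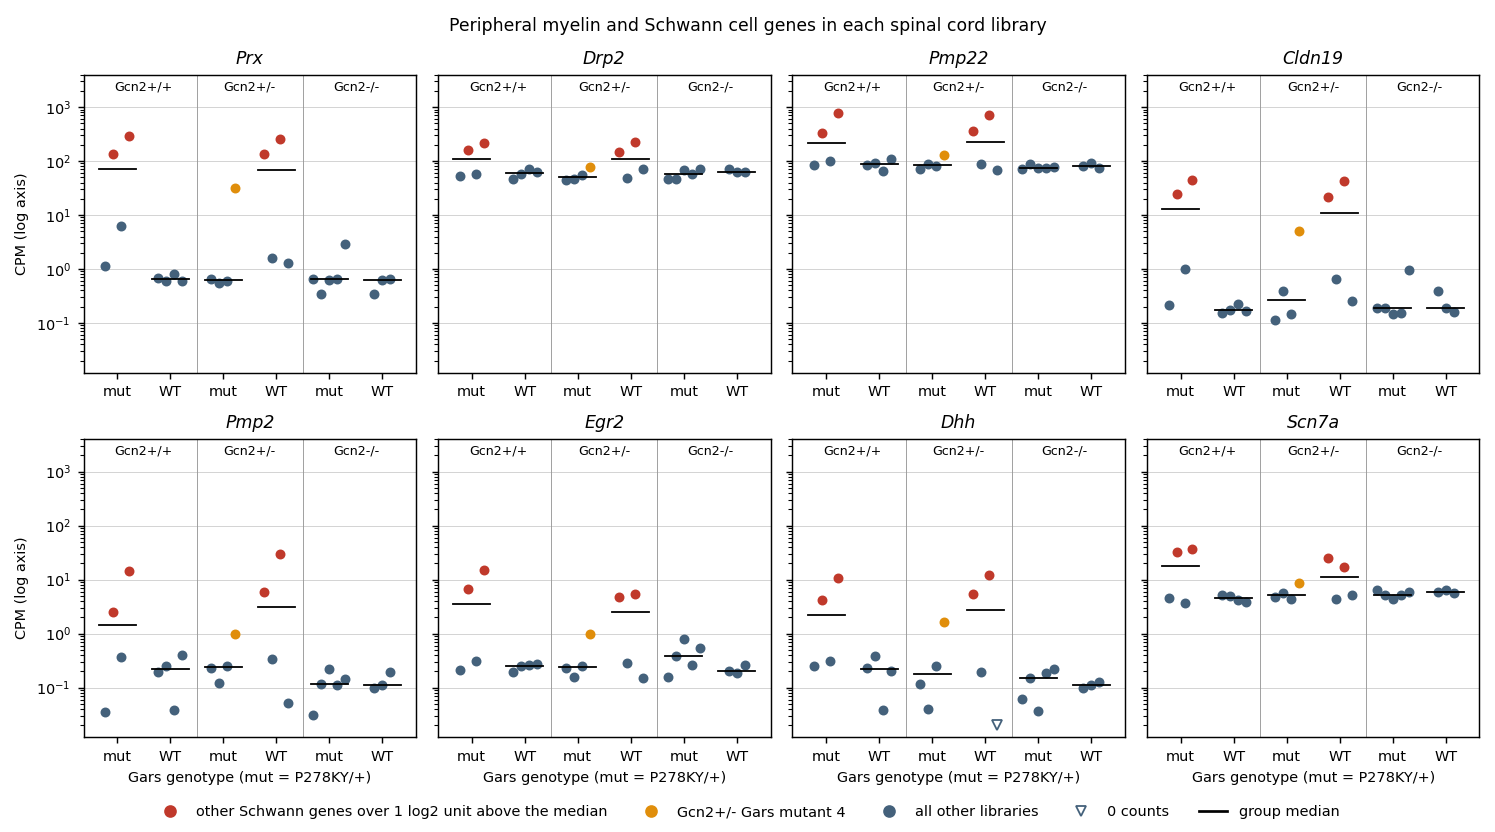
Level of each gene in CPM (log axis) in each of the 24 libraries, by Gcn2 genotype and, within it, Gars mutant (mut) before wild-type (WT). Red points are the 4 libraries with a high score of other Schwann genes, the orange point is Gcn2+/- Gars mutant 4, black lines are group medians, and the open triangle marks a library with 0 counts. Red points stand above all blue points in every panel, and both Gcn2-/- groups hold none.

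The periaxin pair showed a large difference in baseline. Prx, the scaffold of the Schwann cell membrane, had 1.14, 134, 6.15 and 296 CPM in Gcn2+/+ Gars mutants 1 to 4, against 0.692, 0.601, 0.793 and 0.604 CPM in Gcn2+/+ mice with wild-type Gars. The 4 mutants lay above all 4 wild-type mice, but mutants 1 and 3 lay far below mutants 2 and 4. In Gcn2+/- mice Prx had 0.659, 0.553, 0.593 and 31.9 CPM in the 4 Gars mutants, against 136, 1.57, 260 and 1.27 CPM in the 4 mice with wild-type Gars. Here the groups overlapped, and the high values stood on the wild-type side. In Gcn2-/- mice Prx had 0.653, 0.341, 0.623, 0.640 and 2.94 CPM in the 5 Gars mutants, against 0.348, 0.633 and 0.641 CPM in the 3 wild-type Gars mice.

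Drp2, the dystrophin-related partner of periaxin, had a base level of its own in the cord. It reached 163 and 220 CPM in Gcn2+/+ Gars mutants 2 and 4, against 52.3 and 56.3 CPM in mutants 1 and 3 and 47.4, 58.5, 70.6 and 63.6 CPM in Gcn2+/+ mice with wild-type Gars. Gcn2+/- Gars mutants had 45.0, 47.2, 54.8 and 77.3 CPM, against 144, 48.4, 223 and 72.6 CPM in Gcn2+/- mice with wild-type Gars. Both Gcn2-/- groups lay within the low range, at 45.8 to 71.2 CPM in Gars mutants and 62.0 to 69.9 CPM with wild-type Gars.

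Pmp22, a compact myelin protein whose dosage causes inherited neuropathy in humans, followed the same libraries. Its level was 83.3, 337, 98.5 and 774 CPM in Gcn2+/+ Gars mutants, against 83.8, 92.5, 65.0 and 108 CPM in Gcn2+/+ mice with wild-type Gars. Gcn2+/- Gars mutants had 72.5, 86.6, 79.8 and 129 CPM, against 358, 86.6, 716 and 67.1 CPM in Gcn2+/- mice with wild-type Gars. Both pairs of groups overlapped, since 2 of 4 libraries in each of the high groups were at the base level. In Gcn2-/- mice the range was 70.9 to 89.7 CPM in Gars mutants and 74.0 to 92.6 CPM with wild-type Gars. Pmp2, a lipid-binding protein of compact myelin, was near the counting limit except in the high libraries. It had 0.0356, 2.54, 0.374 and 14.3 CPM in Gcn2+/+ Gars mutants, against 0.192, 0.248, 0.0378 and 0.403 CPM in Gcn2+/+ mice with wild-type Gars. Its highest value of all, 29.6 CPM, was in Gcn2+/- wild-type Gars mouse 3, whose group also held 5.95, 0.333 and 0.0507 CPM, while Gcn2+/- Gars mutants had 0.119 to 0.995 CPM. In Gcn2-/- mice Pmp2 had 0.0311 to 0.220 CPM in Gars mutants, against 0.0993 to 0.192 CPM with wild-type Gars.

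Cldn19, the tight junction protein, had 0.214, 25.0, 0.985 and 45.2 CPM in Gcn2+/+ Gars mutants, against 0.154 to 0.227 CPM in Gcn2+/+ mice with wild-type Gars. In Gcn2+/- mice it had 0.116, 0.395, 0.148 and 5.16 CPM in Gars mutants, against 21.2, 0.665, 42.9 and 0.253 CPM with wild-type Gars. Cldn19 and Prx shared their 5 highest libraries, and the same 5 were highest for all 8 members. The regulator Egr2 had 0.214, 6.80, 0.306 and 15.0 CPM in Gcn2+/+ Gars mutants, against 0.192 to 0.269 CPM in Gcn2+/+ mice with wild-type Gars. In Gcn2+/- mice Egr2 was between 0.158 and 0.995 CPM in Gars mutants, against 4.72, 0.285, 5.35 and 0.152 CPM with wild-type Gars. Among the libraries outside the 5, Egr2 was highest in Gcn2-/- Gars mutant 3, at 0.806 CPM, where Prx was 0.623 CPM. In Gcn2-/- mice as a whole, Cldn19 had 0.147 to 0.944 CPM in Gars mutants, against 0.160 to 0.397 CPM with wild-type Gars, and Egr2 had 0.156 to 0.806 CPM in Gars mutants, against 0.186 to 0.257 CPM with wild-type Gars.

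The ligand Dhh had 0.249, 4.13, 0.306 and 10.7 CPM in Gcn2+/+ Gars mutants, against 0.0378 to 0.389 CPM in Gcn2+/+ mice with wild-type Gars. Gcn2+/- Gars mutants had 0.0395 to 1.66 CPM, against 5.31, 0.190, 12.1 and 0 CPM in Gcn2+/- mice with wild-type Gars. The 0 in Gcn2+/- wild-type Gars mouse 4 allows up to 0.152 CPM (3 counts), a limit that covers counting error only. Dhh was low in both Gcn2-/- groups, at 0.0367 to 0.218 CPM in Gars mutants, against 0.0993 to 0.128 CPM with wild-type Gars. The channel Scn7a had 4.48, 31.9, 3.70 and 36.8 CPM in Gcn2+/+ Gars mutants, against 5.11, 5.02, 4.19 and 3.86 CPM in Gcn2+/+ mice with wild-type Gars. In Gcn2+/- mice Scn7a was 4.73, 5.61, 4.30 and 8.47 CPM in Gars mutants, against 25.0, 4.37, 16.9 and 5.07 CPM with wild-type Gars. Like Drp2 and Pmp22, it kept a base level, and this level varied little, between 3.70 and 6.50 CPM over the 19 remaining libraries.

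Levels of different genes can be set against each other only per length, for which the deposited TPM values were used. In the 4 high libraries Pmp22 led, at 449 to 966 TPM, and Prx, at 49.3 to 110 TPM, and Drp2, at 43.2 to 70.2 TPM, came next with ranges that overlapped. Cldn19 was at 18.6 to 38.7 TPM, while Pmp2 (4.29 to 48.5 TPM), Egr2 (3.57 to 14.2 TPM), Dhh (3.64 to 10.4 TPM) and Scn7a (4.30 to 9.13 TPM) overlapped, with the top of Pmp2 within the range of Drp2. In the 19 remaining libraries Pmp22 was again first, at 85.4 to 146 TPM, followed by Drp2 at 14.0 to 22 TPM and Scn7a at 0.920 to 1.58 TPM. Prx (0.120 to 2.26 TPM), Egr2 (0.100 to 2.04 TPM), Cldn19, Pmp2 and Dhh lay mostly below 1 TPM, and the highest values of Prx and Egr2 reached above the range of Scn7a.

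RefSeq promoter windows were at hand for 6 of the 8 genes, in 14 windows of 250 bases before an annotated start. They were searched on both strands for the EGR core GCGTGGGNG, the SOX core AACAAAG and the TATA box TATAAA, after the zinc finger and Sox10 factors of Schwann cells. The EGR core was found in 1 of the 14 windows, that of Scn7a, and in 1.65% of all 32851 windows of that length. Neither the SOX core nor the TATA box was in any of the 14, against 5.03% and 12.4% of all windows. The windows of the 3 members with a single start are shown on build GRCm38.p6, in the direction of transcription, to let the Scn7a match be seen beside 2 genes of the same pattern without one. Capitals mark the EGR core, here on the opposite strand and beginning 125 bases before the start. Scn7a lies at chr2:66784911-66785160 (minus strand), Prx at chr7:27499074-27499323 (plus strand) and Dhh at chr15:98898541-98898790 (minus strand).
Scn7a: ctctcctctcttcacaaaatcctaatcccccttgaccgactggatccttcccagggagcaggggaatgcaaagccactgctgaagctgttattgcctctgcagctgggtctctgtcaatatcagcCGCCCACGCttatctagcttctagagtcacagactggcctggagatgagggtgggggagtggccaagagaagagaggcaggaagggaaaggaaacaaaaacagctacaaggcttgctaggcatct
Prx: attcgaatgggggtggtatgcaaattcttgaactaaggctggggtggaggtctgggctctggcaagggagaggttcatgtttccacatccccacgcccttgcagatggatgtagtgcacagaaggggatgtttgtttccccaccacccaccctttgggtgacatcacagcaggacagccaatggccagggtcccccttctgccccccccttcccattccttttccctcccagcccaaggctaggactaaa
Dhh: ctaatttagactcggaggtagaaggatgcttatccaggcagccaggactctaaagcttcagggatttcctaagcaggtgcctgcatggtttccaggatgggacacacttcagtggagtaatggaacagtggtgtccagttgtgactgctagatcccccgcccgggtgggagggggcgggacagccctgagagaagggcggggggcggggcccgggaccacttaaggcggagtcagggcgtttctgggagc
A match of letters is no evidence of binding, and no binding was measured.

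The effect of the Gars mutation was estimated within each Gcn2 genotype with edgeR's quasi-likelihood test on all genes, with sex as a term and Benjamini-Hochberg adjustment, calling genes at an adjusted p below 0.05. In Gcn2+/+ mice 0 of the 8 members were called, against 0.632% of all tested genes. All 8 estimates were above 0, with a median log2 change of 3.41 for the members and 0.01 for all tested genes. The unadjusted p was below 0.05 for 5 of the 8, against 17.3% of all genes. Prx was at 5.68 ± 2.36 (log2 change ± SE, adjusted p = 0.225, 4 against 4 mice), Cldn19 at 5.54 ± 2.10 (0.190) and Egr2 at 4.14 ± 1.38 (0.147), on the same scale. Prx was the single member for which all mutant libraries lay above all wild-type libraries, as did 4.08% of tested genes. DESeq2, with its own filter and size factors, called 4 of 8 members, Prx, Cldn19, Egr2 and Scn7a, against 4.23% of the genes to which it gave an adjusted p.

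In Gcn2+/- mice the estimates had the opposite sign. Again 0 of 8 members were called, against 0.178% of all tested genes. All 8 estimates were below 0, with a median log2 change of -3.50 for the members and -0.01 for all tested genes, and 7 of 8 had an unadjusted p below 0.05, against 14.7% of all genes. Prx was at -5.51 ± 2.06 (adjusted p = 0.259 by edgeR, 4 against 4 mice), Pmp2 at -5.09 ± 1.67 (0.222) and Dhh at -4.03 ± 1.57 (0.271). For none of the 8 did the Gars mutants and wild-type Gars libraries stand apart without overlap, a position held by 4.02% of tested genes for mutants above and 3.25% for mutants below. DESeq2 called 3 members, Pmp2, Prx and Cldn19, of the 6 to which it gave an adjusted p (none for Egr2 and Dhh), against 1.46% of such genes.

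The difference between both Gars effects, Gcn2+/- minus Gcn2+/+, was tested as an interaction chosen after the data were seen. By edgeR 6 of the 8 members were called, all negative, against 1.25% of all tested genes called negative and 3.7% in either direction. The log2 difference was -11.19 ± 2.59 for Prx (adjusted p = 0.0399), -10.15 ± 2.36 for Cldn19 (0.0399), -8.72 ± 2.12 for Pmp2 (0.0408), -7.23 ± 1.93 for Dhh (0.0464), -7.10 ± 1.68 for Egr2 (0.0399) and -3.61 ± 0.96 for Pmp22 (0.0472). Scn7a (-3.20 ± 0.89, 0.0523) and Drp2 (-2.11 ± 0.62, 0.0601) were not called. DESeq2 called all 8, against 10.2% of genes with an adjusted p, and edgeR without the sex term also called 8. The edgeR calls lay close to the cutoff and changed with single libraries. When any one of 10 libraries was left out, 0 members were called. These were Gcn2+/+ Gars mutants 2, 3 and 4 and Gcn2+/+ wild-type Gars mice 2, 3 and 4. The others were Gcn2+/- Gars mutants 2, 3 and 4 and Gcn2+/- wild-type Gars mouse 3. Without Gcn2-/- Gars mutant 4, 3 members were called. Over all genes, 0 to 1784 were called when leaving out each library in turn. The estimates of all 8 members stayed negative in these fits, from -14.3 to -10 for Prx and from -2.39 to -1.59 for Drp2. With the score of the 18 other Schwann genes as a covariate, 0 members and 0 genes of all tested were called, and Prx was at -0.20 ± 0.70. The score was high in the same libraries as the members, so their smaller estimates were largely built in.

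**Figure D2:**
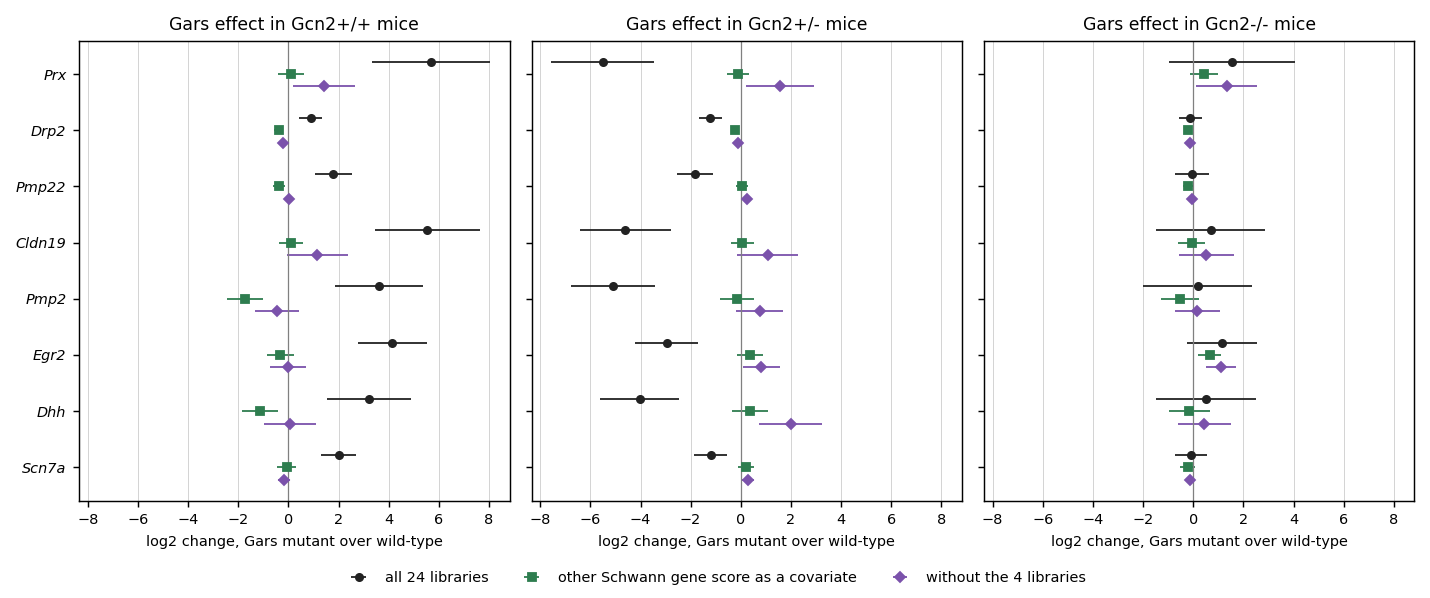
Log2 change of each member, Gars mutant over wild-type, with its SE, within Gcn2+/+, Gcn2+/- and Gcn2-/- mice. Circles use all 24 libraries, squares add the score of other Schwann genes as a covariate, and diamonds leave out the 4 libraries with a high score. Circles lie right of 0 in Gcn2+/+ mice and left of 0 in Gcn2+/- mice, and in both squares and diamonds lie nearer to 0, with wide SEs for the genes that are at low counts outside those libraries.

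In Gcn2+/+ and Gcn2+/- mice, the Gars estimates of all 8 members were nearer to 0 with the score as a covariate, and likewise without the 4 libraries. In Gcn2-/- mice this held for 4 of 8 with the covariate and 6 of 8 without the libraries. In Gcn2+/+ mice Prx was at 0.10 ± 0.51 (adjusted p = 0.95 by edgeR) with the score as a covariate and at 1.41 ± 1.25 (0.646) without the 4 libraries, and in Gcn2+/- mice at -0.10 ± 0.44 (0.954) and 1.55 ± 1.35 (0.663). For Pmp22, whose base level gives it a smaller error, the estimates without the 4 libraries were 0.02 ± 0.21 in Gcn2+/+ mice and 0.24 ± 0.21 in Gcn2+/- mice. Without them Drp2 was at -0.21 ± 0.20 in Gcn2+/+ and at -0.11 ± 0.20 in Gcn2+/- mice. No member was called in either setting in any comparison. Both settings rest on genes that were high in the same libraries as the members. A shift toward 0 was thus largely built in, and neither setting can decide whether genotype mattered. With the covariate, the share of all genes called was 0.178% for the Gars effect in Gcn2+/+ mice, 0.172% in Gcn2+/- and 0.0115% in Gcn2-/- mice, 0.0287% for loss of Gcn2, 0.00574% for the difference Gcn2-/- minus Gcn2+/+ and 0% for Gcn2+/- minus Gcn2+/+. Without the 4 libraries these shares were 0.177%, 0.063%, 0.00572%, 0.0401%, 0.0172% and 0% in that order. Without the 4 libraries and Gcn2+/- Gars mutant 4 as well, Prx was at 1.91 ± 0.60 (0.256) in Gcn2+/+ mice and at -1.13 ± 0.65 (0.642) in Gcn2+/- mice, and Dhh no longer passed the low-count filter. Leaving out the 4 high libraries leaves 2 mice in each of the groups that held them, and the Gcn2+/- Gars mutants lose mutant 4 only.

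In Gcn2-/- mice, where no library had a high score, 0 of 8 members were called for the Gars effect, against 0.0115% of all genes. Their median log2 change was 0.35, against 0.00 for all tested genes, and 0 of 8 had an unadjusted p below 0.05, against 4.35% of all genes. The better-measured members were at -0.05 ± 0.69 for Pmp22, -0.12 ± 0.45 for Drp2 and -0.10 ± 0.65 for Scn7a, with errors that the high libraries of other groups widen. Without the 4 libraries the same estimates were -0.05 ± 0.18, -0.12 ± 0.17 and -0.12 ± 0.19. The difference of the Gars effect, Gcn2-/- minus Gcn2+/+, was negative for all 8 (median -2.84), and 0 of 8 were called, against 0.0115% of all genes. Only Scn7a, at -2.10 ± 0.99, had an unadjusted p below 0.05 there, against 4.93% of all genes, and it was at 0.05 ± 0.30 without the 4 libraries.

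Loss of Gcn2 with wild-type Gars, Gcn2-/- against Gcn2+/+, also gave 0 of 8 called, against 0.0287% of all genes, with 0 of 8 at an unadjusted p below 0.05, against 3.68%. Scn7a had 5.81, 6.41 and 5.61 CPM in Gcn2-/- mice, against 5.11, 5.02, 4.19 and 3.86 CPM in Gcn2+/+ mice. These groups did not overlap, as for 2.29% of tested genes in that direction, and the log2 change was 0.34 ± 0.70, or 0.38 ± 0.21 without the 4 libraries, not called in either. The targeted gene, Gcn2 (Eif2ak4), followed its labels, at 11.4 to 15.0 CPM in Gcn2-/-, 20.4 to 23.7 CPM in Gcn2+/- and 29.0 to 34.3 CPM in Gcn2+/+ mice, 8 of each.

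Across all 6 genotypes, the test of any difference called 1 of 8 members, Prx (adjusted p = 0.0469 by edgeR), against 0.73% of all tested genes. Cldn19 (0.0654), Pmp2 (0.0680) and Dhh (0.0958) were next, and all 8 had an unadjusted p below 0.05, as did 2494 of the 17409 genes. With the score as a covariate the adjusted p of Prx was 0.762 and without the 4 libraries 0.581, and no member was called in either, against 0.523% and 0.332% of all genes. DESeq2 called 7 of 8, all but Drp2, against 5.31% of genes with an adjusted p. The edgeR call was lost when any one of 19 libraries was left out, and 1 to 4 members were called without Gcn2+/+ Gars mutant 1 (3) or 3 (1), Gcn2+/- Gars mutant 4 (2), or Gcn2+/- wild-type Gars mouse 2 (3) or 4 (4).

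Prx alone was also set against a cut of 1 CPM. Outside the 4 high libraries and Gcn2+/- Gars mutant 4, it was above 1 CPM in 5 libraries, with 1.14 and 6.15 CPM in Gcn2+/+ Gars mutants 1 and 3, 2.94 CPM in Gcn2-/- Gars mutant 5, and 1.57 and 1.27 CPM in mice 2 and 4 of the Gcn2+/- group with wild-type Gars. The remaining 14 libraries lay between 0.341 and 0.793 CPM. Prx was thus above 1 CPM in 4 of 4 Gcn2+/+ Gars mutants against 0 of 4 wild-type Gars mice, in 1 of 4 Gcn2+/- Gars mutants against 4 of 4 wild-type Gars mice, and in 1 of 5 Gcn2-/- Gars mutants against 0 of 3 wild-type Gars mice. Some libraries passed narrowly, Gcn2+/+ Gars mutant 1 with 32 counts and Gcn2+/- wild-type Gars mouse 4 with 25. Gcn2+/+ wild-type Gars mouse 3, below the cut, had 21. The score of other Schwann genes did not set all of these libraries apart. It was 4.05 in Gcn2+/+ Gars mutant 1 and 4.04 and 4.07 in Gcn2+/- wild-type Gars mice 2 and 4, near the median of 4.02. In Gcn2+/+ Gars mutant 3 and Gcn2-/- Gars mutant 5 it was 4.38 and 4.26. In Gcn2+/- wild-type Gars mouse 4, Pmp22 was at 67.1, Pmp2 at 0.0507 and Dhh at 0 CPM. In Gcn2+/+ mice, 4.08% of all tested genes had every mutant above every wild-type Gars mouse.

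Of 17 other Schwann genes, 5 were higher in each of the 4 libraries than in each of the 19, against 1.34% of all tested genes. These were Plekha4, Ncmap, Gldn, Col28a1 and Foxd3. All 17 are part of the score that picked the 4 libraries, so this count is no separate support. Plekha4 was at 21.7 to 55.7 CPM in the 4 against 0.396 to 2.00 CPM, and Gldn, which clusters channels at peripheral nodes, at 6.34 to 12.9 CPM against 0.982 to 2.29 CPM. Sox10, which oligodendrocytes share, was at 106 to 152 CPM against 77.2 to 143 CPM, and Gjb1, also shared, at 61.6 to 89.0 CPM against 59.2 to 95.9 CPM. For the Gars effect 0 of 17 were called in Gcn2+/+ (median 0.23), Gcn2+/- (-0.31) and Gcn2-/- mice (0.05). The shares of all tested genes called were 0.632%, 0.178% and 0.0115% in that order. The smallest p in Gcn2+/+ mice were those of Foxd3 (0.93 ± 0.29, adjusted p = 0.120 by edgeR), L1cam (0.21 ± 0.07, 0.126), Adgrg6 (0.79 ± 0.25, 0.127) and Gldn (2.14 ± 0.72, 0.147). For the difference Gcn2+/- minus Gcn2+/+, 4 of 17 were called, all negative, against 1.25% of all tested genes called negative. They were Plekha4 (-7.73 ± 1.79, adjusted p = 0.0399 by edgeR), Ncmap (-5.40 ± 1.35, 0.0429), Gldn (-3.47 ± 0.92, 0.0459) and Foxd3 (-1.40 ± 0.38, 0.0472). In the test of any difference 0 of 17 were called by edgeR, against 0.73% of all tested genes. The unadjusted p was below 0.05 for 7 of 17, as for 2494 of the 17409 genes.

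The partners of the members were less uniform. Of 7 partners of periaxin and Egr2, Dag1 (dystroglycan, 126 to 152 against 86.8 to 106 CPM), Lama2 (a laminin chain of the basal lamina, 28.5 to 65.6 against 12 to 23.5 CPM) and Utrn (160 to 219 against 122 to 149 CPM) were higher in each of the 4 libraries than in each of the 19. That position was held by 1.34% of all tested genes. The Egr2 co-regulator Nab1 was at 32.4 to 43.4 CPM in the 4 against 35.5 to 50.3 CPM. In Gcn2+/+ mice 0 of the 7 were called for the Gars effect, against 0.632% of all tested genes. Dag1 was at 0.39 ± 0.12 (adjusted p = 0.114 by edgeR), Nab1 at -0.30 ± 0.10 (0.142), Itga6 at 0.43 ± 0.20 (0.263) and Lama2 at 0.94 ± 0.46 (0.306). Among 8 genes of hedgehog reception, which would receive Dhh, 0 were called for the Gars effect in any Gcn2 genotype. The shares of all tested genes called were 0.632% in Gcn2+/+, 0.178% in Gcn2+/- and 0.0115% in Gcn2-/- mice. None of the 8 stood above all 19 libraries in all 4. Hhip, an inhibitor of hedgehog ligands, had the smallest p in Gcn2+/+ mice, at -0.50 ± 0.12 (0.0616).

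**Figure D3:**
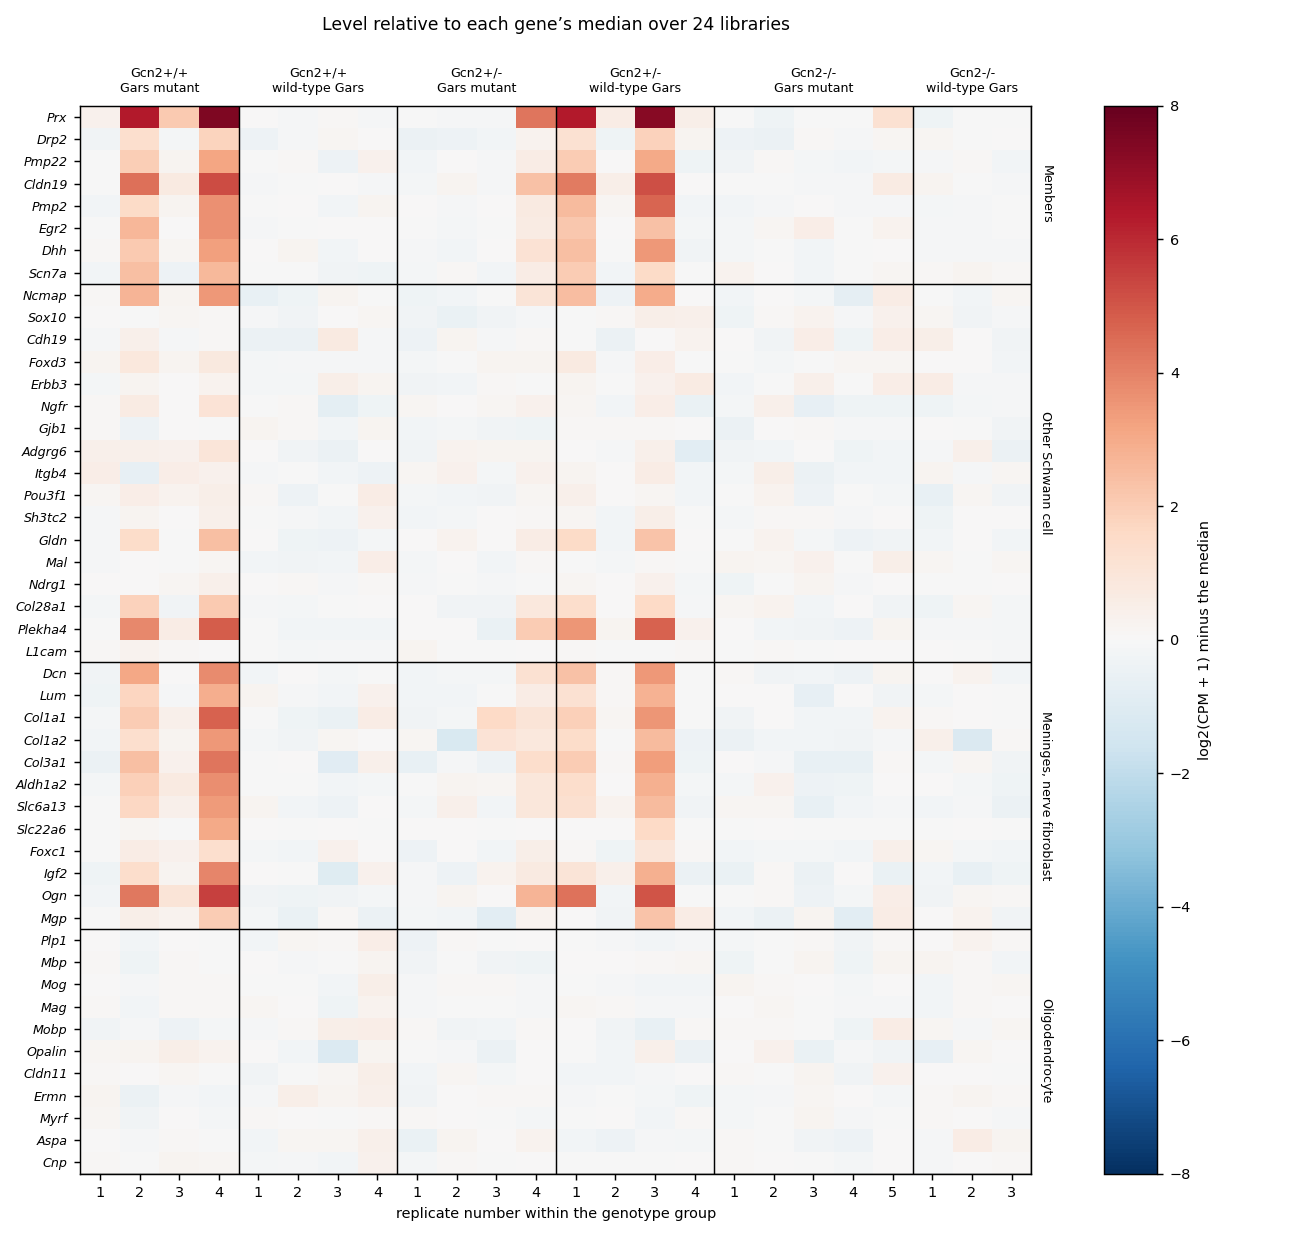
Log2(CPM + 1) minus the median over 24 libraries for the 8 members and for genes of 3 other lists, by library within genotype group (columns). Columns 2 and 4 of the Gcn2+/+ Gars mutants and 1 and 3 of the Gcn2+/- wild-type Gars mice are raised for the members, for part of the other Schwann genes and for most meningeal and fibroblast genes, and not for the oligodendrocyte genes.

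Genes of meninges and nerve fibroblasts were high in the same libraries. Of 12 such genes, 9 were higher in each of the 4 libraries than in each of the 19, against 1.34% of all tested genes. Among the 9 were the matrix genes Dcn, Col1a1, Col3a1, Lum and Ogn. The summed level of the 12 was 393, 1517, 327 and 828 CPM in Gcn2+/+ Gars mutants 2 and 4 and Gcn2+/- wild-type Gars mice 1 and 3, 193 CPM in Gcn2+/- Gars mutant 4, and 66.4 to 156 CPM in the other 19. Skeletal muscle genes (6) summed to 72.5 CPM in Gcn2+/+ Gars mutant 2 and to 3.68 CPM in Gcn2+/- wild-type Gars mouse 1. In the 19 their sum was 0.778 to 1.58 CPM. The sums in Gcn2+/+ Gars mutant 4 and Gcn2+/- wild-type Gars mouse 3 lay within that range, so muscle genes were not raised in every high library. The part of these tissues in the members' levels was not tested. For the Gars effect 0 of the 11 meningeal and fibroblast genes tested were called in any Gcn2 genotype. Of all tested genes, 0.632% were called in Gcn2+/+, 0.178% in Gcn2+/- and 0.0115% in Gcn2-/- mice. In Gcn2+/+ mice Ogn was at 4.73 ± 1.71 (adjusted p = 0.174 by edgeR) and Dcn at 2.60 ± 0.95 (0.178). For the difference Gcn2+/- minus Gcn2+/+, 3 of 11 were called negative, against 1.25% of all tested genes. With the meningeal and fibroblast score as a covariate, 0 members were called in any comparison. Without it, edgeR called members only in the test of any difference and in the difference Gcn2+/- minus Gcn2+/+. That score was 3.80 to 5.89 in the 4 libraries and 2.06 to 2.69 in the 19. Losing the calls was thus largely built in and decides nothing about the part of these tissues.

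The oligodendrocyte and central myelin genes (11) did not follow: their sum was 23670 to 28185 CPM in the 4 libraries, within the 23000 to 36870 CPM of the 19. For the Gars effect 0 of 11 were called in any Gcn2 genotype, against 0.632%, 0.178% and 0.0115% of all tested genes in Gcn2+/+, Gcn2+/- and Gcn2-/- mice. Mobp was at -0.55 ± 0.18 (adjusted p = 0.144 by edgeR) and Ermn at -0.39 ± 0.14 (0.154) in Gcn2+/+ mice. Of 9 dorsal root ganglion neuron genes, the sensory markers Mrgprd, Scn10a and Prdm12 were at 0 or up to 0.285 CPM in all 24 libraries, and the summed list was at 7.37 to 15.2 CPM in the 4 and 7.50 to 14.7 CPM in the 19. From this list P2rx3 (1.87 ± 0.21, adjusted p = 5.41e-05 by edgeR) and Avil (2.44 ± 0.43, 0.00706) rose in Gcn2+/+ Gars mutants. P2rx3 was at 6.01 and 4.35 CPM in mutants 1 and 3 and at 4.55 and 4.16 CPM in mutants 2 and 4, so its level did not follow the members. Bone marrow genes (5) summed to 0.343 to 5.03 CPM in the 4 and 0.188 to 7.96 CPM in the 19. Motor neuron genes (6 of 7 listed) summed to 727 to 1308 CPM in the 4 and 860 to 1371 CPM in the 19, and spinal cord neuron genes (6) to 2585 to 2977 CPM and 2846 to 3606 CPM. Both sets of libraries mix Gars genotypes. For the Gars effect, edgeR called 4 of the 6 motor neuron genes in Gcn2+/+ mice and 3 in Gcn2+/- mice, all lower in mutants. The shares of all tested genes called were 0.632% and 0.178%. In Gcn2-/- mice 0 of the 6 were called.

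The proportions among the members were not the same in the high libraries. They are given as TPM per 100 TPM of Prx, with 95% intervals (exact Clopper-Pearson) that cover counting error only. Of the 5 members plotted, Cldn19 had the narrowest range (highest over lowest), at 42.5 (39.3 to 46.0) and 35 (32.9 to 37.2) in Gcn2+/+ Gars mutants 2 and 4, 38.8 (32.2 to 46.4) in Gcn2+/- Gars mutant 4, and 37.7 (34.1 to 41.5) and 37.0 (34.6 to 39.6) in Gcn2+/- wild-type Gars mice 1 and 3. The intervals of Gcn2+/+ Gars mutants 2 and 4 did not overlap each other. Dhh was at 6.92, 8.12, 11.4, 8.72 and 10.6 in that order.

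Pmp2 varied most, at 8.16 (6.42 to 10.2) and 20.6 (18.6 to 22.9) in Gcn2+/+ Gars mutants 2 and 4, 13 (8.54 to 19.1) in Gcn2+/- Gars mutant 4, and 18.7 (15.6 to 22.2) and 49.4 (45.6 to 53.4) in Gcn2+/- wild-type Gars mice 1 and 3. Egr2 went the other way in wild-type mouse 3, at 3.63 (3.02 to 4.34), against 10.4 (8.47 to 12.6) in wild-type mouse 1, and stood at 8.97 (7.76 to 10.3) and 12.9 (11.6 to 14.3) in Gcn2+/+ Gars mutants 2 and 4. In Gcn2+/- Gars mutant 4 it was at 6.23 (4.08 to 9.13). For Egr2 these ratios departed from the counts. Gcn2+/+ Gars mutants 2 and 4 had 206 and 396 Egr2 counts to 4064 and 7818 of Prx, nearly the same proportion. Wild-type mice 1 and 3 had 104 and 125 Egr2 counts to 3002 and 6063 of Prx. In Gcn2+/+ Gars mutant 2, 6.80 CPM of Egr2 went with 4.72 TPM, and in mutant 4, 15.0 CPM with 14.2 TPM. The intervals do not cover this shift between CPM and TPM. Scn7a was also lowest in wild-type mouse 3, at 4.38 (3.94 to 4.85), against 15.9 (14.8 to 17.0) in Gcn2+/+ Gars mutant 2, and was highest in Gcn2+/- Gars mutant 4, at 17.3 (14.9 to 20). The intervals of wild-type mouse 3 do not overlap those set against them, except for Egr2 in Gcn2+/- Gars mutant 4. With 1 library each, the intervals compare libraries, not genotypes. Pmp22, Drp2 and Scn7a were also freed of their base level, the median over the 19 libraries, as was Prx. Drp2 was then at 67.4 and 47.6 in Gcn2+/+ Gars mutants 2 and 4, 48.6 in Gcn2+/- Gars mutant 4, and 53.7 and 54.4 in Gcn2+/- wild-type Gars mice 1 and 3, and Pmp22 at 630, 769, 391, 673 and 807. Scn7a was then at 13.6, 7.16, 7.12, 9.70 and 3.12, so that it stayed lowest in wild-type mouse 3 but was no longer highest in Gcn2+/- Gars mutant 4.

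**Figure D4:**
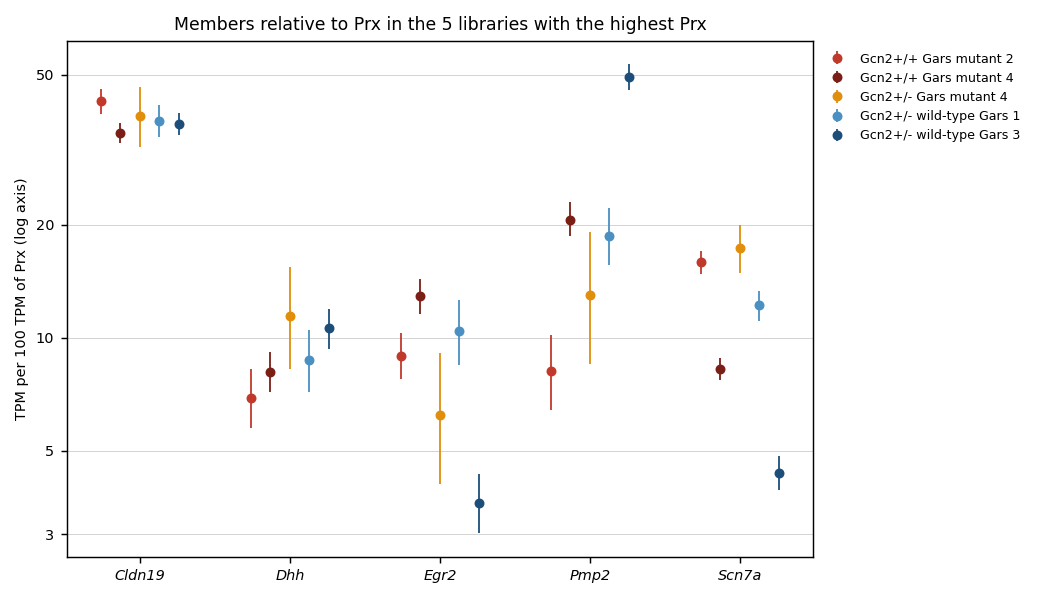
TPM of 5 members per 100 TPM of Prx (log axis) in the 5 libraries with the highest Prx, with exact 95% intervals for counting error. Cldn19 lies at 35 to 42.5 per 100, while Pmp2 ranges from 8.16 to 49.4 and is highest where Egr2 and Scn7a are lowest. Base levels are not subtracted here.

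The members were compared with their own mean profile, taken as log2(CPM + 1) relative to each gene's median over the 24 libraries. The profile was at 2.84 and 3.86 in Gcn2+/+ Gars mutants 2 and 4, 1.33 in Gcn2+/- Gars mutant 4, and 2.87 and 3.66 in Gcn2+/- wild-type Gars mice 1 and 3. Dhh was closest to it, with a root mean square difference of 0.25, then Egr2 (0.37), Pmp22 (0.38), Pmp2 (0.39), Scn7a (0.61), Cldn19 (0.64), Drp2 (0.79) and Prx (1.63), whose high values stood farthest from its median. The 10 genes outside the members with the nearest profiles over the 24 libraries were Mfap5 (0.14), Dcn (0.19), Cdh1 (0.22), Slc36a2 (0.26), Ncmap (0.31), Islr (0.32), Col3a1 (0.37), Plekha4 (0.45), Aldh1a2 (0.45) and Igfbp6 (0.46). Mfap5, a microfibril protein, was at 9.12 to 21.3 CPM in the 4 libraries against 0.147 to 0.763 CPM in the 19, and Cdh1, the epithelial cadherin, at 4.42 to 24.8 CPM against 0.0388 to 0.611 CPM. Of the 10, Dcn, Col3a1 and Aldh1a2 were on the meningeal and fibroblast list and Ncmap and Plekha4 on that of other Schwann genes.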

How the data were processed

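The authors deposited RSEM expected counts and TPM per gene and library; RSEM 1.2.12 and Bowtie2 2.2.0 are named in the submitters' processing notes, and neither the genome build nor the use of strand in counting is stated in the labels. Libraries held 19727467 to 32392753 counts, which sets the precision of low genes. Symbols came from GENCODE M21 by gene ID (37607 of 38924 matched). Expected counts were rounded and tested with edgeR 4.0.16 (R 4.3.3; TMM, filterByExpr by group, robust quasi-likelihood, terms for group and sex, all 24 libraries), with SE taken as the log2 change over the square root of F. Nothing states separate litters, so p-values measure the spread between these mice. The genes named were the members, genes with the smallest p in several lists, and the 10 nearest profiles with a mean of at least 1 CPM. A gene was also named where it bore on a library that stood apart, chosen after its values were seen. Members and lists were chosen with earlier results of these data known. The scripts were tested on simulated data. One gene of the score is not reported here. Alternatives were RLE factors, DESeq2 1.42.0, limma 3.58.1 voom weights, filters, terms, covariates and left-out libraries.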

Additional observations from a re-analysis of the deposited data

Results flagged for a closer look

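One library stood far from the others of its group in 5 of 40 member and genotype combinations tested, where chance alone gives about 1 in 20. The members rise together in a library and all 5 came from 2 libraries. The 40 are thus not independent, and 5 cannot be read as an excess over that rate. In Gcn2+/- Gars mutant 4 these were Prx at 31.9 CPM, Cldn19 at 5.16 CPM and Egr2 at 0.995 CPM. In Gcn2-/- Gars mutant 5 they were Prx at 2.94 CPM and Cldn19 at 0.944 CPM. Groups with 2 high libraries, such as Gcn2+/+ Gars mutants, cannot be flagged this way, and the group of 3 was not tested.

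The Gars effect differed between Gcn2+/- and Gcn2+/+ mice by edgeR's interaction test for 6 members, with log2 differences of -8.72 for Pmp2, -3.61 for Pmp22, -11.19 for Prx, -10.15 for Cldn19, -7.10 for Egr2 and -7.23 for Dhh. None of the 6 passed with the score of other Schwann genes as a covariate or without the 4 libraries in which it was high. The members were high in the same 4 libraries. Losing the calls was thus largely built in and decides nothing about genotype.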

How the results depend on the processing

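The counts of called members depended on the fit. For the Gars effect, DESeq2 called 4 members in Gcn2+/+ mice and 3 in Gcn2+/- mice, where edgeR called 0, also when leaving out each library in turn. The test of any difference called 1 member, against 7 by DESeq2 and 0 without the low-count filter, with voom weights, with either covariate and without the 4 or 5 high libraries, with 0 to 4 when leaving out each library in turn. The interaction of Gcn2+/- minus Gcn2+/+ mice called 6, against 8 by DESeq2, 8 without the sex term, and 0 without the filter, with only the 4 groups compared, with voom weights, with either covariate and without the high libraries, and 0 to 8 when leaving out each library in turn. With the title number as a replicate block, both tests called 0 members. The labels do not say that this number pairs mice, so no paired analysis was read from it. RLE factors changed no call. The other comparisons kept 0 called members in every setting run. Over all genes, the counts called ranged from 11 to 646 in Gcn2+/+ mice (110 as reported), from 4 to 200 in Gcn2+/- mice (31), from 0 to 1860 for their difference (644) and from 44 to 893 for any difference (127). DESeq2 gave the highest of these counts in all but the difference, where voom weights did (1860, against 1712 by DESeq2). Causes were not tested. Depth limits Pmp2, Dhh, Egr2, Cldn19 and Prx, which were near the counting limit outside the high libraries.

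Among 509 member estimates in settings other than leaving out single libraries, 92 changed sign. Those that did had the following log2 values, and none was called in that setting. The Gars effect in Gcn2+/+ mice was -1.73 for Pmp2, -0.38 for Pmp22, -0.33 for Egr2, -0.069 for Scn7a, -0.39 for Drp2 and -1.13 for Dhh with the Schwann gene score as a covariate. With the meningeal score as a covariate it was -0.87 for Pmp2, -0.070 for Pmp22, -0.17 for Drp2 and -0.13 for Dhh. Without the 4 high libraries it was -0.45 for Pmp2, -0.018 for Egr2, -0.16 for Scn7a and -0.21 for Drp2. Without those 4 and Gcn2+/- Gars mutant 4 it was -0.32 for Pmp2, -0.14 for Scn7a and -0.20 for Drp2. That in Gcn2+/- mice was 0.30 for Pmp22 with the title number as a block. With the Schwann gene score as a covariate it was 0.047 for Pmp22, 0.057 for Cldn19, 0.37 for Egr2, 0.20 for Scn7a and 0.38 for Dhh. Without the 4 high libraries it was 0.75 for Pmp2, 0.24 for Pmp22, 1.55 for Prx, 1.08 for Cldn19, 0.81 for Egr2, 0.29 for Scn7a and 1.98 for Dhh. Without those 4 and Gcn2+/- Gars mutant 4 it was 0.025 for Pmp2, 0.054 for Pmp22 and 0.028 for Scn7a. That in Gcn2-/- mice was -0.17 for Pmp2 without the sex term. With the title number as a block it was -1.70 for Pmp2, -0.71 for Prx, -1.14 for Cldn19, -0.22 for Egr2 and -2.20 for Dhh. With limma voom it was -0.31 for Pmp2, 0.040 for Pmp22 and 0.015 for Drp2. With the Schwann gene score as a covariate it was -0.52 for Pmp2, -0.054 for Cldn19 and -0.15 for Dhh. With the meningeal score as a covariate it was -0.10 for Pmp2. The change with loss of Gcn2 under wild-type Gars was 0.17 for Cldn19 under DESeq2. Without the sex term it was 0.38 for Cldn19. With the title number as a block it was 0.38 for Pmp2, 0.39 for Pmp22, 1.16 for Prx, 1.84 for Cldn19, 0.75 for Egr2 and 1.29 for Dhh. With limma voom it was -0.13 for Drp2. With the Schwann gene score as a covariate it was 0.24 for Cldn19. With the meningeal score as a covariate it was 0.25 for Cldn19. Without those 4 and Gcn2+/- Gars mutant 4 it was 0.27 for Cldn19. The difference of the Gars effect, Gcn2-/- minus Gcn2+/+, was 1.21 for Pmp2, 0.17 for Pmp22, 0.34 for Prx, 0.98 for Egr2, 0.19 for Drp2 and 0.97 for Dhh with the Schwann gene score as a covariate. With the meningeal score as a covariate it was 0.76 for Pmp2, 0.39 for Egr2, 0.050 for Drp2 and 0.34 for Dhh. Without the 4 high libraries it was 0.61 for Pmp2, 1.12 for Egr2, 0.046 for Scn7a, 0.091 for Drp2 and 0.39 for Dhh. Without those 4 and Gcn2+/- Gars mutant 4 it was 0.37 for Pmp2, 0.91 for Egr2 and 0.063 for Drp2. The difference Gcn2+/- minus Gcn2+/+ was 1.57 for Pmp2, 0.42 for Pmp22, 0.69 for Egr2, 0.27 for Scn7a, 0.16 for Drp2 and 1.5 for Dhh with the Schwann gene score as a covariate. Without the 4 high libraries it was 1.2 for Pmp2, 0.22 for Pmp22, 0.14 for Prx, 0.83 for Egr2, 0.46 for Scn7a, 0.10 for Drp2 and 1.92 for Dhh. Without those 4 and Gcn2+/- Gars mutant 4 it was 0.35 for Pmp2, 0.016 for Pmp22 and 0.17 for Scn7a. When leaving out each library in turn, the sign changed in 17 of 1152 estimates, all of uncalled members: in Gcn2-/- mice the Gars effect ranged from -0.23 to 0.48 for Pmp2, -0.14 to 0.035 for Pmp22 and -0.21 to 0.074 for Drp2, and the change with loss of Gcn2 from -1.43 to 0.28 for Cldn19 and -0.18 to 0.14 for Drp2.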

Other observations

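Drp2 also varied with the number that opens the sample titles, whose meaning the labels do not give. Outside the 4 libraries with high Schwann genes, it was at 66.9 to 72.6 CPM in the 5 libraries numbered 24906, from 4 genotype groups, against 45.0 to 58.6 CPM in the 6 numbered 25102, from 3 groups. The log2 difference was 0.39 ± 0.07 (adjusted p = 0.0133 by edgeR, with 3.71% of all genes called). Pmp22 was at -0.10 ± 0.09 (0.636) and Scn7a at -0.16 ± 0.13 (0.577) in the same test. Of 11 oligodendrocyte genes, 8 had estimates above 0 and 3 below, and 1 was called, Cldn11 (0.34 ± 0.08, 0.0413). Mbp was at 0.35 ± 0.09 (0.0567), Opalin at -0.56 ± 0.17 (0.103) and Mag at -0.22 ± 0.08 (0.171). The difference was seen in these data and tested on the same data.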
